A study of Mus musculus with 47 samples.

Results

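Chil3 and Chia1 are neighbouring mouse genes of the chitinase family, and they were followed here in the lungs of mice given ragweed pollen protein or phosphate-buffered saline (PBS). They are 2 of 16365 genes named on the arrays, and every probe set annotated to either was taken, 3 of 49438. Chil3 is read by 92694_at, which is on both versions of the A array. Chia1 is read by 100107_at on first-version A and by 160509_at on version 2 A. No probe set of either gene is annotated on the B and C arrays. Mice given ragweed and mice given PBS were compared at 24 h and at 72 h past the last challenge, which makes 4 groups of 2 samples each, coded 1a and 1b. Sensitization was on days 0 and 3 and intratracheal challenge on days 10 and 17, with ragweed or PBS throughout. The labels name alum, an adjuvant, at sensitization for ragweed only, so an effect of alum cannot be told apart from one of ragweed. Strain, age and sex are not in the labels used here. Nothing in them tells if 1a and 1b came from different animals. A p-value here sets a difference against the spread within groups, and that spread may be technical only.

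Chitinases of glycoside hydrolase family 18 cut chitin, the polymer of fungal walls, insect cuticle and mite bodies. Chia1 encodes acidic mammalian chitinase, a secreted enzyme of stomach, salivary gland and lung that epithelial cells and macrophages of the allergic mouse airway make. Chil3, also called Ym1, encodes a secreted chitinase-like protein without chitinase activity that is a standard marker of mouse macrophages activated by IL-4 and IL-13. Both genes are induced by these cytokines in the mouse lung, through the transcription factor STAT6.

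The genes lie next to each other on chromosome 3. The order along the chromosome in RefSeq is Ovgp1, Pifo, Chil5, Chia1, Chil3, Chil4, Chil6 and Dennd2d. The promoter windows of Chil3 and Chia1 are shown because both genes were high in the same lungs, and that of Chil4 because it is a near copy of Chil3. Each runs from 250 bases before to 50 bases after the annotated start, 5′ to 3′ on the gene's own strand, and comes from RefSeq on GRCm38.p6. The windows are chr3:106167515-106167814 on the minus strand for Chil3, chr3:106219430-106219729 on the minus strand for Chil4 and chr3:106113132-106113431 on the plus strand for Chia1. Capitals mark matches to the 5 motifs searched.
Chil3: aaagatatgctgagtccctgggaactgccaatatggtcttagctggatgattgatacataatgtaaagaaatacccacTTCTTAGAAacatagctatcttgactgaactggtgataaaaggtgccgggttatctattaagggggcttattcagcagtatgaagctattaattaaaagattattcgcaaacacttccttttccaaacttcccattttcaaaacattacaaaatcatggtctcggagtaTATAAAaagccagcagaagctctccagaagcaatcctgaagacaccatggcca
Chil4: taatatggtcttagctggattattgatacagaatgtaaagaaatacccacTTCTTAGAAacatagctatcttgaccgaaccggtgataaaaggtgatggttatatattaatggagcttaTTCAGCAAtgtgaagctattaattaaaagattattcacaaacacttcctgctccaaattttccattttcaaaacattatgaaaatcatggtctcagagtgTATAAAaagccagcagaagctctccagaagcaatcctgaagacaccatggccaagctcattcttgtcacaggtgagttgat
Chia1: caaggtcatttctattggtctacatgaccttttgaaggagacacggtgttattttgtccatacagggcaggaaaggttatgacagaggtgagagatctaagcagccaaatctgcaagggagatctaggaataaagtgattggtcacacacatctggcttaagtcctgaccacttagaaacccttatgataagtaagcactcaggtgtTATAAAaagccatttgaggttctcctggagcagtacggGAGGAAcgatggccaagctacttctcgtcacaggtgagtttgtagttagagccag

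The motifs searched on both strands were the STAT core TTCNNNGAA, the same core with 4 spacer bases that STAT6 prefers, the TATA box TATAAA, the C/EBP core TTGCNNAA and the PU.1 core GAGGAA. The STAT core with 3 spacer bases was in the Chil3 window, at positions -172 to -164, and in the Chil4 window at -200 to -192. Positions count from the annotated start as 1, with -1 just before it. The core had no match in the Chia1 window, and 8.3% of all 32851 promoter windows hold it. The core with 4 spacer bases, which 6.95% of windows hold, had no match in any of the 3. TATAAA was in all 3, at -3 to 3 for Chil3, -31 to -26 for Chil4 and -43 to -38 for Chia1, against 13.6% of all windows. GAGGAA matched in the Chia1 window only among these 3, at -5 to 1, and 28.3% of windows hold it. The C/EBP core matched in the Chil4 window only among these 3, on the other strand at -131 to -124, and 10.8% of windows hold it. A match is a run of letters and not a measured binding site. The Chil3 and Chil4 windows were 92.6% identical over 271 aligned bases, against 61.5% over 257 for Chil3 and Chia1. Chil4 has no probe set of its own annotated on these arrays, and whether 92694_at also reads Chil4 transcripts was not tested, so the values below are those of a probe set annotated to Chil3.

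The values are Affymetrix murine U74 array intensities. Their precision is limited by how few arrays there are. The arrays of a pair had r of 0.947 to 0.960 across 6896 probe sets on first-version A and 0.952 to 0.974 across 8044 on version 2 A. On version 2 A, ragweed lungs of 24 h were not analysed here. The lung markers Sftpc (alveolar type II cells) and Scgb1a1 (club cells) were above the detection floor, the 40th percentile of intensities on a table, on all 8 first-version A arrays. An extra array of ragweed 24 h lungs with no letter in its code held the values of array 1a, all smaller by a factor of 2.63, and both were counted as 1 array.

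Chil3 was far higher in ragweed than in PBS lungs at both times. On first-version A its normalized intensity at 24 h was 43673 and 49622 in the ragweed lungs, against 1704 and 1383 in the PBS lungs. At 72 h it was 52066 and 50946 in the ragweed lungs, against 3042 and 2710 in the PBS lungs. Every ragweed sample lay at least an order of magnitude above every PBS sample, and the lowest PBS value was still well above the floor of 291.6. Chil3 was thus measured in every lung, PBS lungs included.

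**Figure D1:**
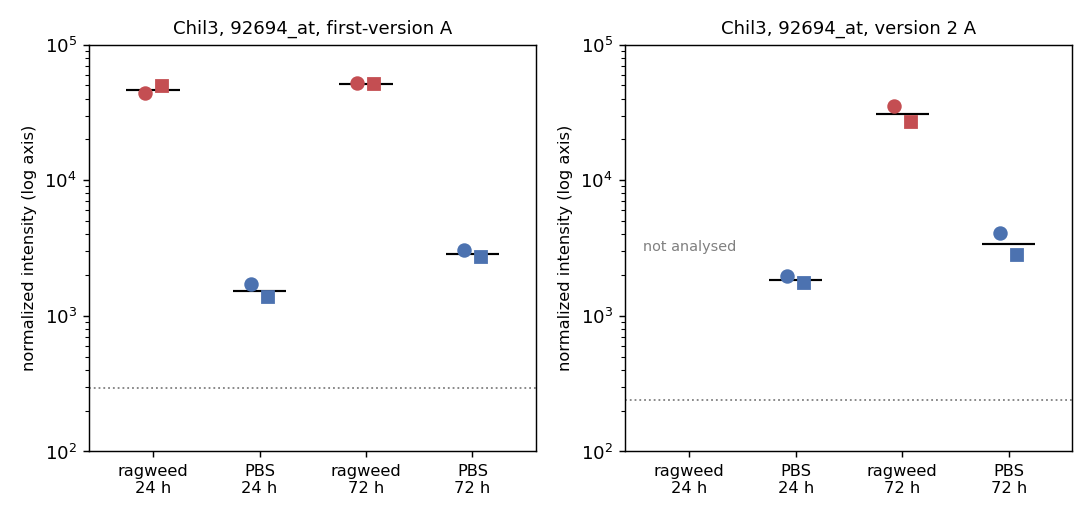
Normalized intensity of the Chil3 probe set on a log axis, per sample, on first-version A (left) and version 2 A (right). Circles are samples 1a and squares 1b, bars are geometric means of the 2 samples, and the dotted line is the floor. On first-version A the ragweed samples sit between 43673 and 52066 and the PBS samples between 1383 and 3042.

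The log2 difference between ragweed and PBS lungs was 4.92 ± 0.12 at 24 h (SE, as after every ± below, n = 2 per group), which is 30.3-fold with a 95% interval of 24.9 to 36.9 (limma, adjusted p = 2.7e-06). At 72 h it was 4.16 ± 0.12, or 17.9-fold with an interval of 14.8 to 21.8 (limma, adjusted p = 1.05e-05). Over the 25250 probe sets tested, 0.23% were called at 24 h and 0.527% at 72 h at an adjusted p under 0.05. Ranked by the size of the rise among all of these, Chil3 stood at 1 at 24 h and at 2 at 72 h. Counting only rises, 0.21% of probe sets were called at 24 h and 0.333% at 72 h. In these whole lungs, more cells that make a transcript and more transcript per cell cannot be told apart.

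The ragweed levels at the 2 times were not separated by the test. The log2 difference of ragweed lungs at 72 h against ragweed lungs at 24 h was 0.15 ± 0.12, with a 95% interval from -0.14 to 0.43 (limma, adjusted p = 0.716), in a comparison where 0.305% of probe sets were called. The ragweed groups did not overlap, but in normalized values their gap was smaller than the spread within the 24 h group. Before quantile normalization that was not so. The scaled intensities then were 43716 and 40065 in the ragweed lungs at 24 h, against 58927 and 49647 in those at 72 h. The PBS lungs differed more. Chil3 was higher in PBS lungs at 72 h than in PBS lungs at 24 h by 0.90 ± 0.12 on the log2 scale, or 1.87-fold (limma, adjusted p = 0.0319), a comparison in which 0.281% of probe sets were called. That call was lost when any 1 of the 8 samples was left out, with adjusted p from 0.0671 to 0.232, although the difference stayed between 0.75 and 1.06. The order of the 4 groups from the top was therefore the 72 h and then the 24 h ragweed lungs, followed by the PBS lungs at 72 h and those at 24 h, and the 2 ragweed groups are not separated by their test.

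The response itself, ragweed minus PBS, was smaller at 72 h than at 24 h by the fitted values. The difference of the responses was -0.76 ± 0.17 on the log2 scale (95% interval -1.16 to -0.36), and it did not pass over all probe sets (limma, p = 0.00229, adjusted p = 0.394). In that comparison 0.0356% of probe sets were called. Set against the PBS lungs of the other time, the 24 h ragweed difference was 4.02 and the 72 h one 5.07. Marker sums of 4 other tissues and cell types also differed between the PBS groups. The summed intensity of 8 squamous epithelium genes was 37267 and 38212 in the PBS lungs at 72 h, against 15296 and 13220 in the PBS lungs at 24 h. The summed intensity of 11 heart and skeletal muscle genes was 30851 and 33064 in the PBS lungs at 72 h, against 15303 and 14712 in the PBS lungs at 24 h. Club cell genes summed to 135590 and 124710 in the PBS lungs at 72 h, against 68289 and 72004 in the PBS lungs at 24 h. Of 7 club cell genes tested 3 were called higher, beside 0.281% of all probe sets called in either direction. The brightest of them, Scgb1a1, had a log2 difference of 1.27 ± 0.12 between these PBS groups on first-version A. On version 2 A it had the other sign, -0.63 ± 0.22 (limma, adjusted p = 0.277). Goblet cell genes summed to 10715 and 12274 in the PBS lungs at 72 h, against 5943 and 6259 in the PBS lungs at 24 h. Of 8 goblet cell genes tested 2 were called higher, beside the same 0.281%. In ragweed lungs against PBS lungs at 72 h, 3 of 7 squamous genes tested and 2 of 10 muscle genes were called lower, beside 0.194% of all probe sets. Their part in the Chil3 difference between the PBS groups was not tested.

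The same Chil3 probe set on version 2 A gave the same direction with a smaller size. Its version 2 intensity at 72 h was 35126 and 26925 in the ragweed lungs, against 4083 and 2826 in the PBS lungs. In the PBS lungs of 24 h it was 1960 and 1736. Again no ragweed sample came near a PBS sample. The log2 difference at 72 h was 3.18 ± 0.21, or 9.05-fold with a 95% interval of 6.46 to 12.7 (limma over 8044 probe sets, adjusted p = 0.00148). Of all version 2 A probe sets, 2.09% were called, and 1.59% were called higher. The PBS lungs of 72 h were above those of 24 h by 0.88 ± 0.21 (adjusted p = 0.117), in a comparison where 0.796% of probe sets were called.

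The array versions can be compared sample by sample, since the same 6 samples were measured on both. Chil3 was lower on version 2 than on first-version A in the ragweed lungs at 72 h, with log2 ratios of -0.75 and -0.88. In the PBS lungs at 72 h it was higher on version 2, by 0.46 and 0.10, and in the PBS lungs at 24 h by 0.20 and 0.32. The version thus moved the ragweed and PBS values in opposite directions, and the fold at 72 h was 17.9 on first-version A and 9.05 on version 2 A. A bend with brightness was seen across probe sets. Among the 9977 probe sets shared by the versions, those between 1000 and 5000 on the first version had median log2 ratios of 0.05 to 0.13 over the 6 samples. The 100 brightest on the first version had medians of -0.23 to -0.67, and the 20 brightest there -0.91 to -1.93. Picking probe sets by their first-version value can itself lower this ratio, by an amount that was not tested. In the ragweed lungs at 72 h the medians of the 20 brightest were -0.91 and -1.04, beside -0.75 and -0.88 for Chil3. These are log2 ratios within a probe set and not levels compared between probe sets.

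**Figure D2:**
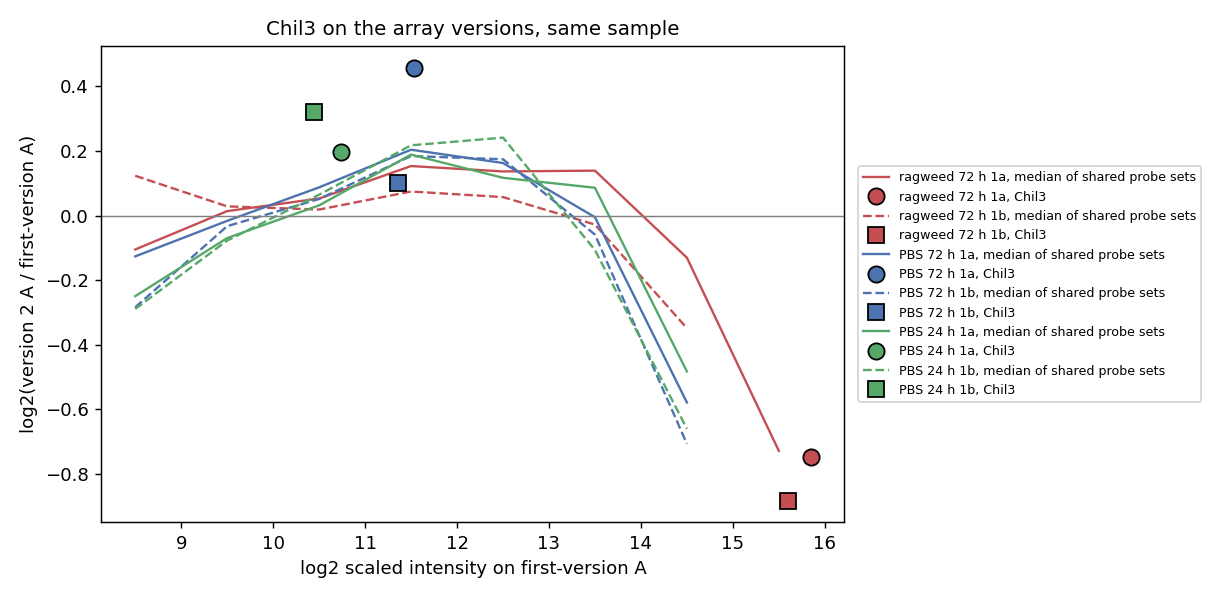
Log2 ratio of version 2 A over first-version A (vertical) against log2 scaled intensity on first-version A (horizontal), for 6 samples measured on both. Lines join medians of the shared probe sets in steps of 1 log2 unit holding at least 20 of them, and filled symbols are Chil3. The ragweed Chil3 points lie at -0.75 and -0.88, past the right ends of the lines of their samples, which bend down there. The PBS points lie above 0, between 0.10 and 0.46.

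Chil3 was near the top of every ragweed array. On first-version A it reached 53.8 and 70.5% of the highest intensity on the array in the ragweed lungs at 24 h and 68.2 and 70% at 72 h, against 1.38 to 5.07% in the PBS lungs. Its rank among all probe sets of the array was 17 and 9 at 24 h and 7 and 9 at 72 h in ragweed lungs. On version 2 A it ranked 3 on both ragweed arrays, at 86.4 and 81.7% of the highest intensity. The copy of ragweed array 1a with the smaller values gave 19533 for Chil3, and its highest value was 36309. On the first-version A PBS arrays, deposited with trimmed means under 800 as that copy was, the highest values ran from 32586 to 36616, close to it. Whether the signal of the ragweed arrays was limited at the top was not tested. Without quantile normalization, the first-version Chil3 difference was 4.76 at 24 h and 4.27 at 72 h.

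Chia1, the enzyme, was also far higher in ragweed lungs at 72 h on version 2 A. Its probe set 160509_at read 18009 and 17445 in the ragweed lungs, against 1763 and 1309 in the PBS lungs at 72 h. The PBS lungs of 24 h gave 2054 and 1800. Both ragweed samples lay far above all 4 PBS samples, and no value was near the floor of 237.8. The log2 difference at 72 h was 3.54 ± 0.16, or 11.7-fold with a 95% interval of 8.98 to 15.2 (limma, adjusted p = 0.000786), and the probe set ranked 4 of 8044 by the size of the rise. Against the PBS lungs of 24 h the difference was 3.20. Between PBS lungs at 72 h and at 24 h the log2 difference of Chia1 was -0.34 ± 0.16 (adjusted p = 0.426), and that of Chil3 on the same arrays was 0.88. The gap between these 2 differences was not tested.

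On first-version A the other Chia1 probe set, 100107_at, stayed close to the floor of 265.1. At 24 h it read 203 and 444 in the ragweed lungs, against 269 and 307 in the PBS lungs. The 72 h values were 479 and 413 in the ragweed lungs, against 171 and 177 in the PBS lungs. At 24 h the ragweed samples lay on both sides of the PBS samples. At 72 h both ragweed samples were above both PBS samples, which were below the floor. The log2 difference at 24 h was 0.26 ± 0.26 with a 95% interval from -0.35 to 0.86 (limma over 8876 probe sets, adjusted p = 0.817), and it was -0.12 without ragweed sample 1b. At 72 h ragweed was at least 1.68-fold higher, a log2 difference of 0.75 ± 0.26 against PBS values raised to the floor (p = 0.0207, adjusted p = 0.265). Over all first-version A probe sets, 0.958% were called at 24 h and 1.79% at 72 h. The response at 72 h minus that at 24 h was 0.49 ± 0.37 (adjusted p = 0.742), in a comparison where 0.158% were called.

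**Figure D3:**
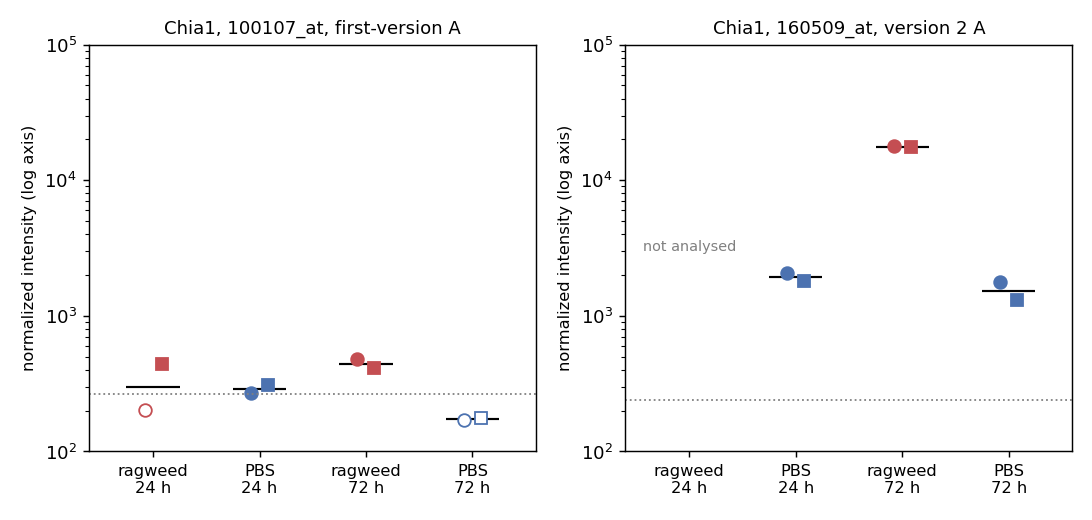
Normalized intensity of the Chia1 probe sets on a log axis, per sample, for 100107_at on first-version A (left) and 160509_at on version 2 A (right). Circles are samples 1a and squares 1b, open symbols are below the floor (dotted line), and bars are geometric means of the 2 samples. On the right the ragweed samples of 72 h are at 17445 and 18009, and on the left no sample is above 479.

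Chia1 at 24 h thus rests on 100107_at alone, since the version 2 A ragweed arrays of that time are not analysed here. The 2 probe sets read the same samples at 72 h, and only 160509_at passed the test there. The exchange of probe sets between the versions touched many genes. Of the values of the 2611 probe sets on first-version A only, 36.2% were above the floor, against 66.2% for the shared ones. There were 552 genes with a single probe set on each version and different IDs, and 343 of them were above the floor on all 6 version 2 arrays, against 116 on all 6 first-version arrays of the same samples. On version 2, 6 of these genes were called at 72 h, and Chia1 was among them. Of the 4 that were tested on the first version too, 0 were called there by limma, and 2 had an unadjusted p under 0.05, one of them Chia1. In the other direction, 1 gene of the 552 was called on the first version, Bag1 with 1.14 (adjusted p = 0.0312), and its version 2 probe set had -0.30 (adjusted p = 0.366). The sequences of the probes were not used here, so which transcript 100107_at reads was not tested.

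Over the 6 samples of version 2 A the log2 values of the Chil3 and Chia1 probe sets had a Pearson r of 0.956. The samples share their groups, so this describes the ragweed difference that both genes have. Over the 8 samples of first-version A, the 5 genes most like Chil3 among 6167 were Pigr (r = 0.988), Car2, Tff2, F7 and Ccl9 (r = 0.976). Pigr, the receptor that carries polymeric immunoglobulin across epithelium, read 6660 and 7006 in the ragweed lungs at 24 h, against 2108 and 1856 in the PBS lungs. The 72 h values of Pigr were 8240 and 7798 in the ragweed lungs, against 3035 and 3046 in the PBS lungs. Its ragweed values lay above its PBS values at both times, and its PBS values at 72 h lay above those at 24 h, as those of Chil3 did. The ragweed log2 difference of Pigr was 1.79 ± 0.10 at 24 h (adjusted p = 0.000206) and 1.40 ± 0.10 at 72 h (adjusted p = 0.00124). Tff2, a secreted trefoil peptide of mucous cells, had differences of 2.08 and 2.23, and Ccl9, a chemokine, of 2.46 and 2.29.

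On version 2 A the 5 genes most like Chil3 were Fcgr2b, Mmp12, C1qc, Ctss and Itgax, with r from 0.995 to 0.997 among 7242 probe sets over 6 samples. These are not the 5 of first-version A. Fcgr2b and Mmp12 were below the floor in both PBS lungs of 24 h, so their r rests in part on it. Mmp12, the macrophage elastase, read 3606 and 3559 in the ragweed lungs at 72 h, against 515 and 315 in the PBS lungs. The 5 most like Chia1 by r were Tpbg, Arg1, Cxcl5, Retnlb and Mrvi1. Of these, 4 were below the floor in all 4 PBS lungs and Tpbg in 3 of them, so their r is set by the floor and the 2 ragweed samples and says nothing of a likeness among PBS lungs. Arg1, the arginase of alternatively activated macrophages, read 945 and 933 in the ragweed lungs at 72 h, and Retnlb, a resistin-like protein of mucous epithelium, 492 and 491. With 6 samples, 124 probe sets had an r over 0.95 with Chia1 and 147 with Chil3 on that table, so the order among the closest ones rests on small differences in r.

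Of the 10 genes of the chitinase family, 7 had a probe set on the tables compared, and 6 were tested. At each time 2 of the 6 were called higher and 0 lower, beside 0.21 and 0.333% of all probe sets called higher. They were Chil3, which is followed here, and Chil1, so Chil1 was the only other family gene called. The median log2 difference of the 6, Chil3 included, was 1.10 at 24 h and 0.38 at 72 h, against -0.0011 and 0 over 12840 genes. Chil1, a chitinase-like glycoprotein of macrophages and epithelium also called BRP-39, read 9198 and 11796 in the ragweed lungs at 24 h, against 3704 and 4169 in the PBS lungs. The 72 h values of Chil1 were 11557 and 12576 in the ragweed lungs, against 3742 and 4756 in the PBS lungs. The ragweed and PBS samples of Chil1 did not overlap at either time. Its log2 difference was 1.41 ± 0.15 at 24 h (adjusted p = 0.0104) and 1.52 ± 0.15 at 72 h (adjusted p = 0.00577), and 1.26 ± 0.18 on version 2 A at 72 h (adjusted p = 0.0225). Its PBS lungs at 72 h differed from those at 24 h by 0.10 ± 0.15 (adjusted p = 0.925).

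**Figure D4:**
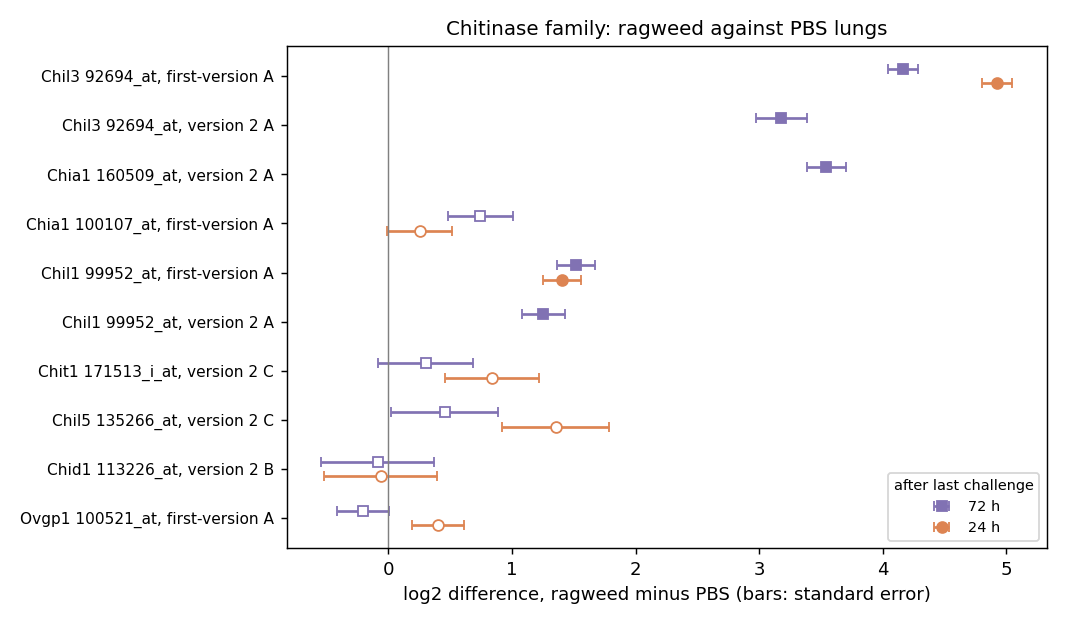
Log2 difference of ragweed minus PBS lungs (horizontal, bars are standard errors, n = 2 per group) for probe sets of the chitinase family, with 72 h as squares and 24 h as circles. Filled symbols passed an adjusted p of 0.05. Chil3 at 4.92 and 4.16, Chia1 on version 2 A at 3.54 and Chil1 at 1.41 and 1.52 are filled, as are Chil3 and Chil1 on version 2 A at 3.18 and 1.26, and the other family genes are open.

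The other family genes tested were not called at either time. Chit1 encodes chitotriosidase, the other active chitinase. The brightest of its 3 probe sets read 2736 and 1933 in the ragweed lungs at 24 h, against 1000 and 1652 in the PBS lungs. Its log2 difference was 0.84 ± 0.38 at 24 h (adjusted p = 0.593) and 0.30 ± 0.38 at 72 h (adjusted p = 0.86). Chil5, a neighbour of Chia1, was above the floor on 4 of 8 arrays. At 24 h it read 573 and 683 in the ragweed lungs, against 221 and 161 in the PBS lungs, both below the floor of 244.7. Its difference from that floor was at least 1.35 (adjusted p = 0.376), and the same probe set on the first-version C array gave 0.36. Ovgp1, an oviduct glycoprotein, had differences of 0.40 at 24 h and -0.21 at 72 h. Chid1, a chitinase-like lectin, had 3 probe sets on the version 2 tables that disagreed in size and sign. The brightest had -0.06 at 24 h and -0.09 at 72 h. Another on the B array had -0.09 at 24 h and 0.90 at 72 h, and one on the C array had 1.53 at 24 h (limma, p = 0.0452, adjusted p = 0.559). None was called at either time. Ctbs, a lysosomal enzyme that trims glycoproteins, was above the floor on 1 of 8 arrays and was not tested. Chil4 and Chil6 have no probe set with their name on these arrays. On version 2 A, 3 family genes were tested at 72 h and all 3 were called higher, beside 1.59% of all probe sets. They were Chil3 and Chia1, the genes followed here, and Chil1.

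Of 14 neighbouring genes listed on both sides of Chil3 and Chia1 on chromosome 3, 9 were tested, and limma called 0 of them at 24 h and 0 at 72 h. Their log2 differences ran from -0.48 to 1.35 at 24 h and from -0.21 to 0.46 at 72 h. Of the 9 neighbours, 1 had an unadjusted p under 0.05 at 24 h, Chil5 with PBS values at the floor, and 0 had one at 72 h. Over all probe sets 8.67% had such a p at 24 h and 9.63% at 72 h, and with so few called in all, these counts say nothing particular to the neighbours.

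Transcripts of the IL-4 and IL-13 pathway, which is known to induce both genes, were examined in the same lungs. Of 13 pathway genes 12 were on the tables, 9 were tested and limma called 0 at either time, with an unadjusted p under 0.05 for 2 at 24 h and 0 at 72 h. Over all probe sets 8.67 and 9.63% had such a p and 0.23 and 0.527% were called, so a count of 0 among 9 is not a result about the pathway. Their median log2 difference was 0.28 at 24 h and 0.15 at 72 h, against -0.0011 and 0 over all genes. The ligands Il4 and Il13 and the decoy receptor Il13ra2 were below the floor on all 8 arrays. The receptor chain Il4ra read 2234 and 2266 in the ragweed lungs at 24 h, against 1780 and 1919 in the PBS lungs, a difference of 0.28 ± 0.13 (adjusted p = 0.578). Stat6 itself had differences of -0.28 ± 0.27 at 24 h (adjusted p = 0.832) and -0.45 ± 0.27 at 72 h (adjusted p = 0.676). Socs1, an inhibitor of cytokine signalling, had the largest of these at 24 h, 1.0 ± 0.26 (adjusted p = 0.277).

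Other genes of alternatively activated macrophages were in part higher as well. Of 12 tested, 3 were called higher at 24 h and 1 at 72 h, beside 0.21 and 0.333% of all probe sets. Their median log2 differences were 0.63 at 24 h and 0.90 at 72 h, against -0.0011 and 0 over all genes. Retnla, a secreted resistin-like protein, read 9601 and 7199 in the ragweed lungs at 24 h, against 715 and 570 in the PBS lungs, a difference of 3.70 ± 0.25 (adjusted p = 8.36e-05). At 72 h its difference was 2.69 ± 0.25 (adjusted p = 0.00105), with 11151 and 8040 in the ragweed lungs, against 1746 and 1240 in the PBS lungs. Arg1 was at 1717 and 1407 in the ragweed lungs at 24 h and below the floor in all PBS lungs, so the log2 difference was at least 2.41. It was above the floor in ragweed lungs only, and it entered the test through them, so its call is given as a description. Ccl24, an eosinophil-attracting chemokine below the floor in the PBS lungs at 24 h, had a difference of at least 2.36 (adjusted p = 0.0442). Mrc1, the mannose receptor, was at 1.71 ± 0.27 at 24 h and did not pass (adjusted p = 0.0598). On version 2 A at 72 h 2 of 6 genes of the list were called higher, beside 1.59% of all probe sets. They were Mrc1 (1.28 ± 0.24, adjusted p = 0.0488) and Arg1, the latter again against PBS values at the floor. The genes Ccl22, Tgm2 and Igf1 had differences between -0.24 and 0.49 at the 2 times.

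General macrophage markers were mostly not called. Of 11 tested, 0 were called at 24 h by limma, with an unadjusted p under 0.05 for 2. At 72 h 6 had an unadjusted p under 0.05 and 1, Mpeg1, was called (1.38 ± 0.23, adjusted p = 0.0498), though on version 2 A it had 0.07 ± 0.18 (adjusted p = 0.86). Over all probe sets 0.23 and 0.527% were called at 24 h and 72 h, and 8.67 and 9.63% had such an unadjusted p. The median log2 difference of the 11 was 0.15 at 24 h, with 7 above 0, and 0.40 at 72 h, with 8 above 0, against -0.0011 and 0 over all genes. The summed intensity of 14 macrophage genes was 41183 and 41968 in the ragweed lungs at 24 h, against 54549 and 60718 in the PBS lungs. The 72 h sums were 47043 and 54124 in the ragweed lungs, against 54282 and 51096 in the PBS lungs. Lyz2, the lysozyme of macrophages, made up most of that sum, and the defining genes Marco and Adgre1 were above the floor on 0 and 1 of 8 arrays. The sums were lower in both ragweed lungs at 24 h and overlapped at 72 h, unlike the median of the single genes, which was above 0. On version 2 A, Itgax was the 1 macrophage gene of 9 tested that was called higher at 72 h, with 2839 and 2608 in the ragweed lungs, against 1191 and 1095 in the PBS lungs (adjusted p = 0.0175). Of all probe sets 1.59% were called higher there.

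Most goblet cell genes tested were higher in the same ragweed lungs. Of 8 tested, 5 were called higher at each time, beside 0.21 and 0.333% of all probe sets. Their median differences were 2.34 at 24 h and 1.74 at 72 h, against -0.0011 and 0 over all genes. Muc5b, a gel-forming mucin, differed by 3.83 ± 0.18 at 24 h and 1.72 ± 0.18 at 72 h. The others called were Fcgbp, Tff2, Bpifb1 and Agr2, the last above the floor on only 5 of 8 arrays. Clca1, Spdef and Foxa3 were called at neither time, and Clca1 had -0.37 at 24 h and 0.97 at 72 h. The mucin Muc5ac was below the floor on all 8 arrays and was not tested there. The summed intensity of 9 goblet cell genes was 60859 and 49471 in the ragweed lungs at 24 h, against 5943 and 6259 in the PBS lungs. The 72 h sums were 40201 and 40737 in the ragweed lungs, against 10715 and 12274 in the PBS lungs. Of 8 neutrophil genes tested 0 were called by limma at either time, with 1 at an unadjusted p under 0.05 at each. On version 2 A at 72 h 5 of 8 had an unadjusted p under 0.05 and 1, S100a8, was called lower (-0.96 ± 0.16, adjusted p = 0.0355). Over all probe sets of that comparison 18.5% had such an unadjusted p and 2.09% were called. Of 2 eosinophil genes tested 0 were called, with 1 at an unadjusted p under 0.05 at 72 h and 0 at 24 h. Of the eosinophil genes Prg2, Epx and Il5ra were below the floor on all 8 arrays. Genes of stomach and salivary gland, the other sites of Chia1, had 0 of 5 called by limma and 0 at an unadjusted p under 0.05 at either time, and the defining Atp4b, Pga5 and Amy1 were below the floor on all 8 arrays. Over all probe sets 0.23 and 0.527% were called at 24 h and 72 h, so these counts of 0 say nothing particular to those cells. The part of these cell types in the Chil3 and Chia1 differences was not tested.

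Of the control ratios for RNA integrity, that of actin differed between groups on version 2 A and that of Gapdh was similar in all. The ratio of the 3′ to the 5′ actin probe set was 0.801 and 0.578 in the ragweed lungs at 72 h, against 0.189 and 0.198 in the PBS lungs at 72 h and 0.535 and 0.437 in those at 24 h. The Gapdh ratio was 0.869 and 0.851 in the ragweed lungs at 72 h, against 0.824 and 0.751 in the PBS lungs at 72 h and 0.988 and 0.857 in those at 24 h. On first-version A the actin ratio ran from 0.798 to 0.968 over all 8 samples, with no such gap. Their part in the version 2 differences was not tested. Against the PBS lungs of 24 h, whose ratio was nearer to that of the ragweed lungs, the Chia1 difference was 3.20 in place of 3.54.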

How the data were processed

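The deposited values are linear intensity, 1 per probe set and array, per the file headers. Neither header nor label names the software behind them. As deposited, the 2% trimmed mean was about 800 on every version 2 array and on the first-version ragweed arrays, and lower on the first-version PBS arrays. Control probe sets were removed. Each first-version array was brought to that mean and then quantile normalized as log2 values, and version 2 arrays were left on their deposited scale. Values under the 40th percentile of a table were raised to it, after scaling. Probe sets above that floor on at least 2 arrays were tested with limma 3.58.1 in R 4.3.3 (1 mean per group, 8 samples, eBayes with a mean-variance trend). The tables were first-version A restricted to the 9977 IDs shared with version 2 A, version 2 B and version 2 C, with Benjamini-Hochberg over all 25250 probe sets and calls at an adjusted p under 0.05. Neither Chia1 probe set is in that set, so 100107_at was fitted on the whole first-version A table and 160509_at on version 2 A (6 samples, 3 residual degrees of freedom), each adjusted within its table. Intervals are 95%. For a gene with several probe sets, a tested one was used before an untested one. Among these the one on the first of A, B and C was taken, and within a table the brightest.

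Symbols are those of the array annotation, brought up to date through their gene IDs. Promoter windows were found for 3 of the 3 genes looked up. The members and gene lists were chosen with earlier results of these data known. Named were all member probe sets, and the 5 genes with the highest Pearson r with the brightest probe set of each gene. Outside the club, squamous and muscle lists, members called between ragweed and PBS lungs were named, with some others. In those lists not every one was. Ratios between array versions, replaced probe sets and neighbouring genes were examined after values were seen. The lists were chitinases, IL-4 and IL-13 signalling, alternatively activated and general macrophages, neutrophils, eosinophils, club, alveolar type II and goblet cells, stomach and salivary gland, squamous epithelium, and heart and skeletal muscle. Of club cell genes, 2 of 7 tested were called higher at 24 h and 1 of 7 lower at 72 h, beside 0.21 and 0.194% of all probe sets. Of alveolar type II genes limma called 0 of 9 at either time, beside 0.23 and 0.527% of all probe sets. An unadjusted p under 0.05 was found for 3 of them at 24 h and 1 at 72 h, beside 8.67 and 9.63% of all probe sets. On version 2 A at 72 h 1 of 5 alveolar type II genes was called higher, Sftpc with 3.74 ± 0.515 (limma, adjusted p = 0.0215), beside 1.59% of all probe sets. There its difference of PBS lungs at 72 h against those at 24 h was -2.53 ± 0.515. On first-version A these 2 Sftpc differences were 0.06 ± 0.12 and -0.40 ± 0.12. The cause of this gap between the versions was not tested. At 24 h, 1 of 10 muscle genes was called higher, beside 0.21% of all probe sets. Of 7 squamous genes 0 were called at 24 h, beside 0.23% of all probe sets, and 1 had an unadjusted p under 0.05, beside 8.67%. The fit was checked on simulated data.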

Additional observations from a re-analysis of the deposited data

How the results depend on the processing

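The Chil3 difference between ragweed and PBS kept its direction and its call in all 19 alternatives tried at 24 h (4.02 to 5.05, highest adjusted p = 0.00133) and all 20 at 72 h (3.18 to 5.07, highest adjusted p = 0.00201). The comparison of ragweed lungs between the times stayed uncalled in all 17 alternatives (0.06 to 0.37), and so did the difference of the Chil3 responses (-0.91 to -0.49). Chil3 in PBS lungs at 72 h against PBS lungs at 24 h kept its direction in all 18 and its call in 5. It lost the call without quantile normalization (0.86, adjusted p = 0.0578), with all probe sets tested (0.90, adjusted p = 0.152), without the mean-variance trend (0.90, adjusted p = 0.186), with the replicate block (0.90, adjusted p = 0.0516), on the other array version (0.88, adjusted p = 0.117) and without any 1 sample (0.75 to 1.06, adjusted p 0.0671 to 0.232). Chia1 at 72 h fell to 0.75 on the other array version, where another probe set reads it, and was called in the other 14 alternatives. Chia1 at 24 h, uncalled throughout, turned to -0.12 without ragweed sample 1b, and ran from -0.12 to 0.62 over the samples left out. The cause of these changes was not tested.

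The number of probe sets called at 24 h was 58, and it was 121 with all probe sets tested, 91 with p-values adjusted within each table, and 23 to 42 without 1 sample. At 72 h it was 133, and 82 with no floor, 80 without the trend, 236 against the PBS lungs of 24 h, 238 against both PBS groups, 72 on the other array version and 25 to 87 without 1 sample. On first-version A, version 2 B and version 2 C, deviations of same-coded samples correlated between -0.079 and 0.044. No shared effect of the codes 1a and 1b was seen there, and whether they pair the samples cannot be told. With the replicate block 58 and 90 probe sets were called at 24 h and 72 h, and the block changed no other call of Chil3 or Chia1. Chia1 values on first-version A under the floor of 265.1 were raised to it, so differences below that intensity did not enter the fit.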
